A study of Homo sapiens with 33 samples.

Results

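SR proteins are RNA-binding splicing factors with a tail rich in arginine and serine, and the CLK kinases phosphorylate that tail. The genes described here are 8 members of the SRSF family (SRSF1 to SRSF7 and SRSF11) and the kinase genes CLK1 and CLK4, taken as a list of gene names, 10 of the 78932 gene identifiers in the deposited tables. All 10 were found, and all 10 passed the filter on low values in every comparison below.

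The RNA came from HepG2, an established human hepatocellular carcinoma line, grown without a treatment named in the labels. Sorting on the cell cycle gave 6 fractions: G1, then the successive S-phase fractions S1, S2, S3 and S4, then G2. Each fraction has 2 libraries (replicates 2 and 3), and bulk cells have 3 (replicates 1, 2 and 3). A total RNA kit for very small inputs (SMARTer Stranded) served the fractions and an mRNA kit (TruSeq Stranded) served bulk, so kit, input and sort differ together and cannot be told apart. All 15 libraries carry nuclear RNA as their molecule label. No separate cultures are named, so the p-values rest on the spread among these libraries alone, and that spread may be technical. In libraries of whole populations, fewer cells that express a gene and less RNA per cell cannot be told apart.

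SR proteins bind short exonic sequences, recruit the spliceosome to nearby splice sites and take part in the export of finished mRNA. They gather in nuclear speckles, and phosphorylation by CLK and SRPK kinases releases them to sites of transcription. The genes control themselves: most carry an alternative exon with a premature stop codon that sends the transcript to nonsense-mediated decay, and CLK1 and CLK4 transcripts that keep an intron are held in the nucleus. The values here are 1 per gene, so transcripts with and without such exons or introns were not told apart.

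The levels are in TPM, reads per length of gene scaled to a fixed total per library. The gene length recovered from the values ran from 2976 bases (SRSF2) to 8806 (SRSF4), and the order of levels between genes depends on it. In bulk SRSF3 had 8498 to 9710 recovered reads, against 5908 to 6626 for SRSF2, whose TPM was higher. Nuclear protein-coding genes held 11.2% to 15.6% of the TPM of the sorted libraries, against 76.9% to 77.8% in bulk. The members' levels are therefore given also after rescaling the nuclear protein-coding genes of each library to a total of 1000000, called rescaled TPM. The members' TPM summed to between 428 and 756 in sorted libraries and between 1376 and 1494 in bulk. Their rescaled TPM summed to between 3458 and 4984 in sorted libraries and between 1778 and 1942 in bulk, so the direction between sorted and bulk depends on the scale.

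SRSF1 lies at chr17:57989038-58007246 on the minus strand and SRSF2 at chr17:76734115-76737411 (GRCh38, RefSeq). SRSF3 lies at chr6:36594362-36605600 on the plus strand and SRSF4 at chr1:29147743-29181900 on the minus strand. SRSF5 lies at chr14:69767142-69772005, SRSF6 at chr20:43457896-43464243 and SRSF11 at chr1:70205696-70253052, all on the plus strand. SRSF7 lies at chr2:38743599-38751494, CLK1 at chr2:200853009-200864658 and CLK4 at chr5:178602664-178627050, all on the minus strand. SRSF4 shares 14205 bases of its span with MECR on the same strand, and SRSF2 shares 778 bases with MFSD11. The sources do not say how reads shared by overlapping genes, or by processed copies of family members, were counted.

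Promoter sequences were matched for 9 of the 10 genes in RefSeq (GRCh38.p14), all but SRSF2. The letters CCATTTTG were found in the promoters of 4 of the 9 (CLK1, CLK4, SRSF1 and SRSF5), on the strand of the gene, in a window of 250 bases before to 50 after the start, against 1.59% of 35116 promoters of that length on either strand. The motif was chosen after the sequences had been read, and a match is a description, not a site. These 4 promoters are shown as the 70 bases before the start and the 30 bases that begin at it, with CCATTTTG in capitals. Beside them is that of SRSF3, which lacks it and is the member with the lowest difference between sorted and bulk libraries below. SRSF4, SRSF6, SRSF7 and SRSF11 lack it too and differed there by 1.52, 0.98, 1.08 and 2.01 (log2, rescaled scale). CLK1, CLK4, SRSF5 and SRSF1, which have it, differed by 2.36, 2.29, 1.84 and 0.98, and a link was not tested.
CLK1 (chr2:200864629-200864728, minus strand): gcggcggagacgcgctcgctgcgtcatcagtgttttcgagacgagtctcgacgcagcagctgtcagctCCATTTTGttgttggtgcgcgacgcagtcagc
CLK4 (chr5:178627021-178627120, minus strand): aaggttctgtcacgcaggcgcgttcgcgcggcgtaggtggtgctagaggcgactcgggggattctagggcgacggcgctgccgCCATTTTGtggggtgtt
SRSF1 (chr17:58007217-58007316, minus strand): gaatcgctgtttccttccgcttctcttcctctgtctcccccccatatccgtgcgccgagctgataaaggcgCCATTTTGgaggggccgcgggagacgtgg
SRSF5 (chr14:69767072-69767171, plus strand): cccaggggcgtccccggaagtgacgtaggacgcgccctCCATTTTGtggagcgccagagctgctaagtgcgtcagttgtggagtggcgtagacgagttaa
SRSF3 (chr6:36594292-36594391, plus strand): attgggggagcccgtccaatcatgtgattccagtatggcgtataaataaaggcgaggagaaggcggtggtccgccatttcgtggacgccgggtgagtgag
TATAAA was found on the strand of the gene in the promoter of SRSF3 (position -30) and in a promoter of SRSF7 (-27). In a promoter of SRSF11 it lay on the other strand, at -206 (11.5% of all promoters have it, either strand). CCAAT was found in the promoter of SRSF3 (34.6%), and TGACGTCA in none of the 9 (1.85%). No match says only that these letters are not in this window.

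Among the sorted libraries SRSF2 and SRSF5 had the highest levels. SRSF2, a defining protein of nuclear speckles, averaged 810 ± 134 rescaled TPM, and SRSF5, which like SRSF4 and SRSF6 carries a pair of RNA-recognition motifs, averaged 807 ± 53.7 (SD, n = 12 sorted libraries each). SRSF2 was above SRSF5 in 7 of 12 libraries, so these neighbours were not apart beyond their spread. SRSF6 followed with 615 ± 77.6 rescaled TPM and SRSF11, a more distant relative of the family, with 568 ± 54.0, and SRSF6 was above SRSF11 in 9 of 12 libraries. SRSF7, which has a zinc knuckle beside its RNA-binding domain, averaged 420 ± 92.5, CLK1 335 ± 36.3, SRSF3, the smallest SR protein, 285 ± 58.5, and SRSF1, the founding member, 241 ± 49.4 rescaled TPM (SD, n = 12 each). Each of SRSF7, CLK1 and SRSF3 was above the next of these in 11 of 12 libraries. SRSF4, the largest SR protein, averaged 176 ± 18.5 rescaled TPM and CLK4 61.7 ± 21.3 (SD, n = 12 each), and they held the last places in all 12 libraries. Recovered read counts for CLK4 were 227 to 1417 per sorted library, and no other member had fewer than 988.

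In bulk the order was different. SRSF2 again came first with 467 ± 7.20 rescaled TPM, followed by SRSF6 with 308 ± 18.9 and SRSF3 with 275 ± 9.45 (SD, n = 3 bulk libraries each). SRSF5 averaged 225 ± 13.6, SRSF7 194 ± 11.1, SRSF11 140 ± 9.17 and SRSF1 120 ± 7.42 rescaled TPM. CLK1 averaged 64.2 ± 5.15 and SRSF4 60.2 ± 1.01, with CLK1 above SRSF4 in 2 of 3 libraries, and CLK4 averaged 11.3 ± 1.97. Apart from CLK1 and SRSF4, every member was above the next in 3 of 3 bulk libraries. SRSF3 thus ranked 7 in the sorted libraries and 3 in bulk, and SRSF5 ranked 2 in the sorted libraries and 4 in bulk.

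**Figure D1:**
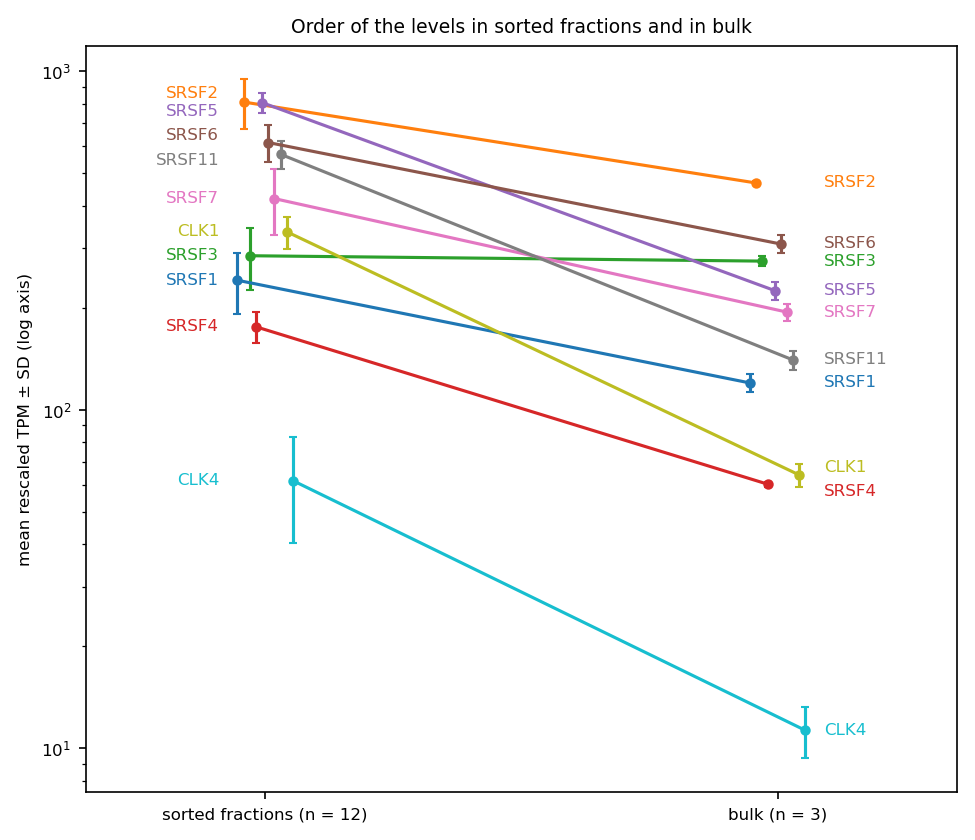
Mean rescaled TPM (log axis) of the 10 genes in sorted fractions (left, n = 12) and bulk (right, n = 3), with bars of 1 SD. SRSF3 runs nearly level, at 285 in sorted libraries and 275 in bulk, while CLK1 and CLK4 drop most steeply towards bulk; all 10 slope the other way on TPM as deposited.

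Across the 6 fractions no member was called different in the main fits, which hold no replicate term. SRSF5, the steadiest, had a coefficient of variation of 6.65% over the 12 sorted libraries on the rescaled scale, and CLK4, the least steady, 34.6%. Counting alone would give 1.78% at the lowest read count of SRSF5 and 6.64% at that of CLK4. In rescaled TPM, replicates 2 and 3 of SRSF3 stood at 225 and 333 in G1, 210 and 288 in S1, 184 and 342 in S2, 262 and 320 in S3, 307 and 354 in S4, and 245 and 349 in G2. S4 was the fraction with the highest mean of SRSF3 and S1 the lowest, a ratio of 1.33, but in G1, S2 and G2 the 2 libraries of the fraction lay further apart than those means. CLK4 stood at 51.8 and 92.0 rescaled TPM in G1, 50.6 and 93.6 in S1, 38.1 and 65.4 in S2, 39.0 and 47.1 in S3, 46.7 and 76.9 in S4, and 47.9 and 91.7 in G2. Its mean was highest in S1 and lowest in S3, a ratio of 1.67, the widest of the 10. For the other 8 members the ratio of the highest to the lowest fraction mean lay between 1.08 (CLK1) and 1.20 (SRSF1).

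The test for any difference among the fractions called 0 of 10 members (limma on log2(TPM + 1), Benjamini-Hochberg adjusted p under 0.05), and 0.0176% of the 17022 genes tested. Among all genes, 470 had an unadjusted p under 0.05, and voom on recovered reads without a replicate term called 0 members too. With a replicate term, voom called 663 genes and 1 member, CLK4 (limma adjusted p = 0.0331). The labels do not show that the replicate numbers pair the libraries. G2 against G1 called 0 of 10 members and 0.00587% of all genes. S (the mean of S1 to S4) against G1 called 0 of 10 members and 0% of all genes, while 891 genes had an unadjusted p under 0.05. G2 against S called 0 of 10 members and 0.00587% of all genes, and the slope from S1 to S4 called 0 of 10 members and 0% of all genes, with 500 genes at an unadjusted p under 0.05. In none of these main fits did a member have an unadjusted p under 0.05.

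The members' median difference lay near that of all genes. It was -0.03 for G2 against G1, beside -0.08 over all genes tested, on the log2 scale. For S against G1 it was -0.19, beside -0.20 over all genes, and for G2 against S 0.13, beside 0.12. The member with the largest difference in S against G1 was CLK4, at -0.47 ± 0.37 (SE, 12 libraries in the fit), and the smallest was that of SRSF1, at -0.04 ± 0.32. On rescaled TPM these became -0.34 for CLK4 and 0.15 for SRSF1, so the sign of SRSF1 depends on the scale. The steepest slope over S1 to S4 was that of SRSF3, at 0.17 ± 0.12 log2 units per fraction (SE), with an adjusted p of 1 (limma with Benjamini-Hochberg adjustment). Genes known to peak in G2 and mitosis, a check of the sort, summed to 68.5 TPM in G1 of replicate 2 and 107 in G1 of replicate 3. In replicate 2 they summed to 399 TPM in S3, 312 in S4 and 185 in G2, and in replicate 3 to 305, 482 and 479. Their sum was thus not highest in G2 in either replicate number, and the comparisons with G2 are to be read beside that. None of these 10 genes was called in any main fit among the fractions either. In G2 against G1, though, 9 of 10 had an unadjusted p under 0.05 (limma), with a median difference of 1.81 on the log2 scale.

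**Figure D2:**
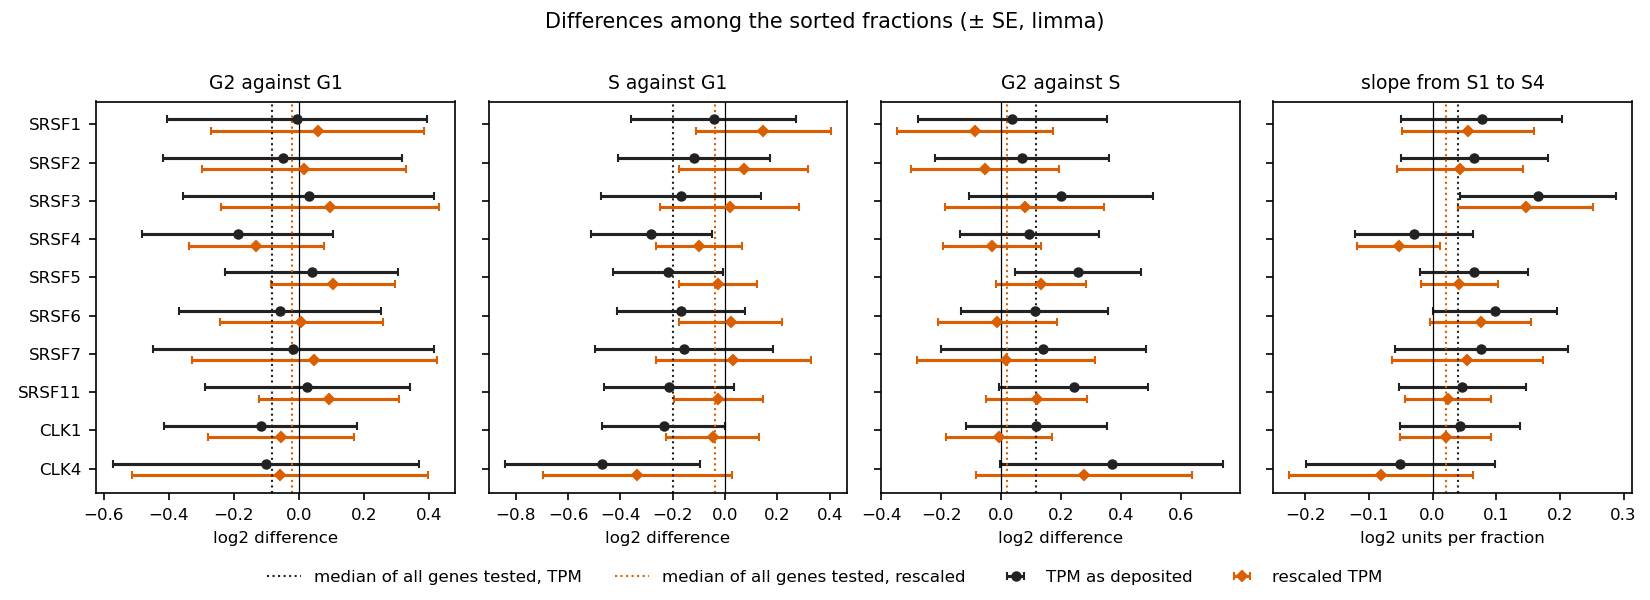
Differences of the 10 genes among sorted fractions with their SE, on log2(TPM + 1) as deposited (circles) and on rescaled TPM (diamonds), with the medians of all genes tested as dotted lines; the right panel is a slope in log2 units per fraction. No member was called in any of the panels, and the signs depend on the scale: for S against G1 all 10 lie below 0 on TPM and 5 lie above 0 on rescaled TPM.

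Within a replicate number the fractions went different ways on TPM as deposited. G2 minus G1 lay between 0.21 and 0.51 for the 10 members in replicate 3 and between -0.59 and -0.29 in replicate 2, so all 10 had opposite signs. On rescaled TPM the same difference lay between -0.08 and 0.24 in replicate 3 and between -0.19 and 0.13 in replicate 2, and 4 of 10 members had opposite signs. S minus G1 was below 0 in both replicates for 9 of 10 members on TPM and for 4 of 10 on rescaled TPM. The slope over S1 to S4 had the same sign in both replicates for all 10 members on TPM, 8 of them above 0, and for 6 of 10 on rescaled TPM.

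The larger split among the sorted libraries ran along the replicate number. Replicate 3 had higher levels than replicate 2 of SRSF7, CLK4, SRSF3 and SRSF2, while SRSF5 was level. SRSF7 stood at 454, 507 and 540 rescaled TPM (lowest, median and highest of 6 libraries) in replicate 3, against 299, 325 and 388 in replicate 2. No library of replicate 2 reached the lowest of replicate 3. SRSF2 stood at 888, 902 and 1012 rescaled TPM in replicate 3, against 583, 673 and 805 in replicate 2, and SRSF3 at 288, 337 and 354 in replicate 3, against 184, 235 and 307 in replicate 2. SRSF2 did not overlap between the numbers, and SRSF3 did. How many of all genes did not overlap was not counted. CLK4, a kinase of SR proteins, stood at 47.1, 84.3 and 93.6 rescaled TPM in replicate 3, against 38.1, 47.3 and 51.8 in replicate 2, and only S3 of replicate 3 fell within the range of replicate 2. SRSF5 stood at 753, 781 and 868 rescaled TPM in replicate 3, against 759, 816 and 923 in replicate 2, and its ranges overlapped almost whole.

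On TPM as deposited, 4 of 10 members were called higher in replicate 3 than in replicate 2 and none lower, where 18% of all 17022 genes were called higher and 6.99% lower (25% in either direction). SRSF7 differed by 0.59 ± 0.13 on the log2 scale (SE; adjusted p = 0.0137, limma with Benjamini-Hochberg adjustment) and was higher in replicate 3 in 6 of 6 fractions. CLK4 differed by 0.67 ± 0.15 (adjusted p = 0.0142) and SRSF3 by 0.49 ± 0.13 (adjusted p = 0.0270), each in 6 of 6 fractions, by the same limma fit. SRSF2 differed by 0.43 ± 0.13 (limma adjusted p = 0.0433), in 5 of 6 fractions. The members' median was 0.36, beside 0.16 over all genes. On rescaled TPM, 9 of 10 members were called higher, all but SRSF5, where 33.6% of genes were called higher and 45.9% in either direction, and 8 of the 9 were higher in 6 of 6 fractions, CLK1 in 5 of 6. SRSF5 differed by -0.04 on TPM and -0.06 on rescaled TPM, fell with median-ratio scaling (-0.23, limma adjusted p = 0.0182) and with voom on recovered reads (-0.24, limma adjusted p = 0.00192), and rose when mitochondrial mRNAs were kept in the rescaling (0.20, limma adjusted p = 0.0395).

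Leaving out a library removes its fraction from this comparison. Without a library of S1, S2, S4 or G2, SRSF2 and SRSF3 were no longer called on TPM, with limma adjusted p up to 0.129 for SRSF2 and 0.0885 for SRSF3, and without S2 replicate 3 neither was SRSF7 (limma adjusted p = 0.0501). CLK4 kept its call whichever library was left out, and the count of members called ran from 1 to 5, with 1 left without S2 replicate 3. Without the filter on low values, CLK4 (limma adjusted p = 0.0601), SRSF3 (0.0932) and SRSF2 (0.145) were not called, and with median-ratio scaling SRSF2 was not (0.0597). SRSF7 and SRSF5 were paired after their replicate differences had been seen, so the separation of their ratio is fixed by that choice and is a description only. The ratio of SRSF7 to SRSF5 within a library was 0.597 to 0.681 in replicate 3, against 0.378 to 0.484 in replicate 2. In bulk, where the numbers also run, that ratio was 0.848 to 0.874 in the 3 libraries.

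**Figure D3:**
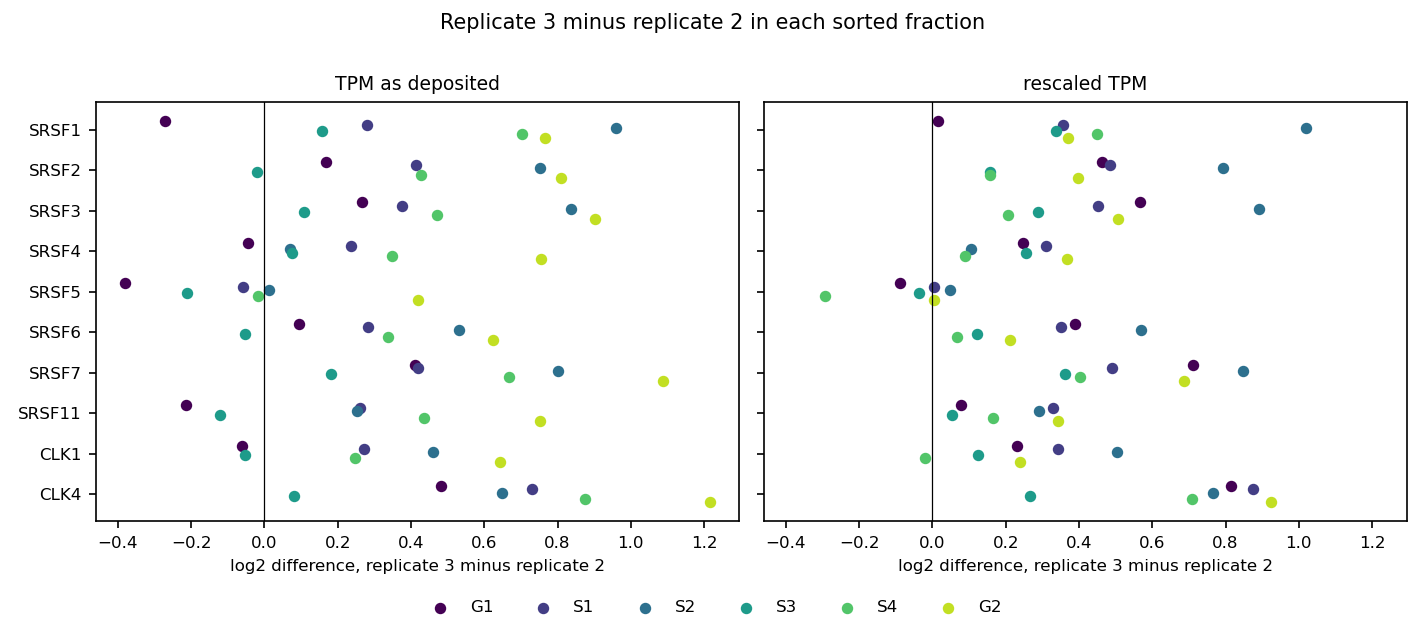
Log2 difference of replicate 3 minus replicate 2 for each gene and fraction, on TPM as deposited (left) and rescaled TPM (right); each point is a fraction. SRSF3, SRSF7 and CLK4 are above 0 in 6 of 6 fractions in both panels, and SRSF5 lies on both sides of 0 in both.

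Other gene groups differed between the replicate numbers, and their part in the members' difference was not tested. The G2 and mitosis genes had 4 of 10 called higher in replicate 3 and none lower, with a median difference of 0.65 on TPM as deposited, and 7 of 10 called higher on rescaled TPM. Hepatocyte markers summed to between 3849 and 6100 TPM in replicate 3, against 7908 to 11961 in replicate 2, and 8 of the 9 tested were called lower. The 13 mitochondrially encoded mRNAs held 0.693% to 2.89% of TPM in replicate 3, against 2.86% to 5.61% in replicate 2. Of 8 stress genes of cell handling tested, 2 were called higher and 4 lower, among them HSPH1 (1.37) and FOS (-2.43, log2). The long nuclear RNAs MALAT1 and NEAT1 differed by 1.19 and -1.38. S4 replicate 3 was sequenced most deeply, at 18485178 recovered reads, while the other sorted libraries had between 6128974 and 9309579 and the bulk libraries between 22340963 and 24423743.

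Against bulk, the kinases CLK1 and CLK4 and the factors SRSF11 and SRSF5 stood highest in the sorted libraries on the rescaled scale, and SRSF3 was level. CLK1 stood at 284, 340 and 406 rescaled TPM (lowest, median and highest of 12) in sorted libraries, against 58.5, 65.3 and 68.6 in bulk, a ratio of means of 5.23. CLK4 stood at 38.1, 51.2 and 93.6 rescaled TPM in sorted libraries, against 9.66, 10.8 and 13.5 in bulk, a ratio of 5.46. SRSF11 stood at 485, 557 and 680 in sorted libraries, against 131, 140 and 149 rescaled TPM in bulk, a ratio of 4.05. None of these overlapped, but the share of all genes without overlap was not counted. SRSF5 stood at 753, 787 and 923 rescaled TPM in sorted libraries, against 210, 228 and 237 in bulk, a ratio of 3.59, and SRSF4 at 149, 171 and 209 in sorted libraries, against 59.0, 60.6 and 60.8 in bulk, a ratio of 2.92.

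The ratio was smaller in the rest of the family. It was 2.16 for SRSF7, 2.01 for SRSF1, 1.99 for SRSF6 and 1.73 for SRSF2, each with 12 of 12 sorted libraries above all bulk libraries. Over all genes such a separation was not counted. SRSF3, which with SRSF7 is an adaptor of mRNA export, stood at 184, 297 and 354 rescaled TPM in sorted libraries, against 264, 276 and 283 in bulk. Its ratio was 1.04, with 7 sorted libraries above all bulk libraries and 5 below.

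**Figure D4:**
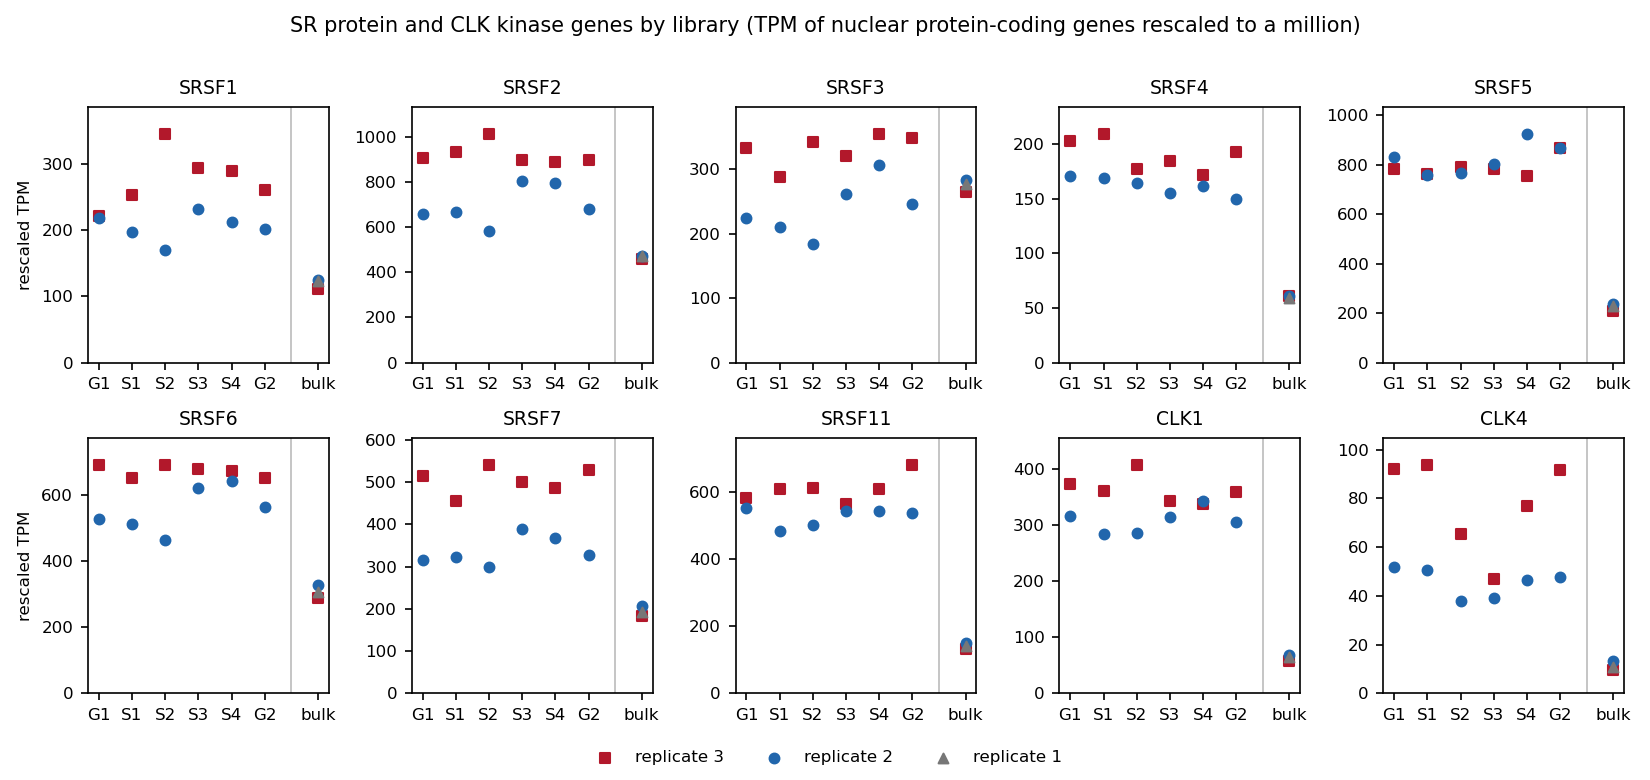
Rescaled TPM of each gene in every library, by fraction and then bulk; squares are replicate 3, circles replicate 2 and triangles replicate 1. In 9 panels all 12 sorted libraries lie above the 3 bulk libraries, while for SRSF3 they lie on both sides. The share of all genes separated in this way was not counted, and 55.1% of 13139 genes were called higher on this scale. On TPM as deposited the means of all 10 lie below bulk.

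On the rescaled scale 9 of 10 members were called higher in sorted fractions than in bulk and none lower, where 55.1% of 13139 genes were called higher and 16.5% lower (71.6% in either direction). CLK1 differed by 2.36 ± 0.13 on the log2 scale (SE; adjusted p = 1.96e-08, limma with Benjamini-Hochberg adjustment), above 91.3% of all genes tested. CLK4 differed by 2.29 ± 0.27 (limma adjusted p = 1.35e-05), SRSF11 by 2.01 ± 0.11 (limma adjusted p = 3.18e-08) and SRSF5 by 1.84 ± 0.09 (limma adjusted p = 1.57e-08). SRSF4, SRSF7, SRSF6, SRSF1 and SRSF2 differed by 1.52, 1.08, 0.98, 0.98 and 0.77. SRSF3 differed by 0.02 ± 0.19 (limma adjusted p = 0.920), above 28.1% of all genes. The members' median was 1.30, beside 0.79 over all genes tested, and 8 of the 10 lay above that value, all but SRSF2 and SRSF3.

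The direction of these differences depends on the scale. On TPM as deposited the 10 differences all lay below 0, from -2.54 for SRSF3 to -0.18 for CLK4, and 8 were called lower, all but CLK1 and CLK4, where 57.8% of genes were called lower and 23.1% higher (80.9% in either direction) and the median of all genes was -0.99. With median-ratio scaling 5 members were called higher, SRSF3 was called lower at -0.92 and SRSF2 stood at -0.18, SRSF1 at 0.02, SRSF6 at 0.03 and SRSF7 at 0.12 without a call (median of all genes 0.47). With voom on recovered reads 6 were called higher, SRSF3 was called lower at -0.72, and SRSF1, SRSF2 and SRSF7 were not called (median of all genes 0.15). Over all genes, the median-ratio fit called 12992 in either direction and the voom fit 9966. In all 4 fits CLK1, CLK4, SRSF11 and SRSF5 held the 4 highest differences and SRSF3 the lowest.

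A ratio of 2 members within a library does not depend on scaling. TPM of CLK1 was 0.953 to 1.56 times that of SRSF3 in sorted libraries, against 0.221 to 0.243 times in bulk. SRSF5 was 2.13 to 4.17 times SRSF3 in sorted libraries, against 0.795 to 0.837 times in bulk, and the ranges of neither pair overlapped. These pairs were chosen after their values had been seen.

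**Figure D5:**
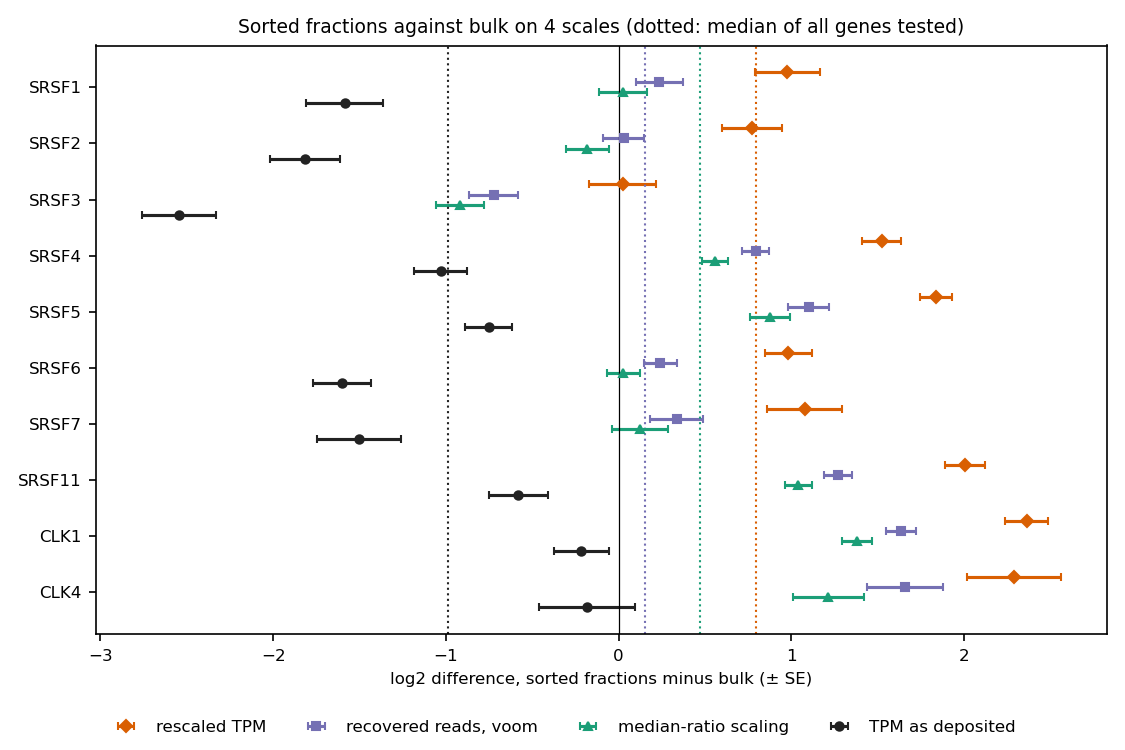
Sorted minus bulk difference of each gene with its SE on 4 scales, with the median of all genes tested on each scale as a dotted line. All 10 genes are at or above 0 on rescaled TPM and below 0 on TPM as deposited, and SRSF3 is the lowest on every scale.

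Within a replicate number, 9 members stayed above bulk on the rescaled scale in 6 of 6 sorted libraries of each number. The share of all genes that did so was not counted. CLK1 exceeded the bulk library of the same number by 2.61 in replicate 3 and 2.15 in replicate 2 (log2). SRSF3 did not hold 1 direction: it averaged 331 rescaled TPM in sorted replicate 3, against 264 in bulk replicate 3, and 239 in sorted replicate 2, against 283 in bulk replicate 2. It was above the bulk library in 6 of 6 sorted libraries of replicate 3 and in 1 of 6 of replicate 2. MALAT1 and NEAT1, which stay in the nucleus, summed to 1370 to 3969 TPM in sorted libraries, against 38.3 to 46.7 in bulk, and the mitochondrially encoded mRNAs to 0.693% to 5.61% of TPM in sorted libraries, against 14.7% to 15.5% in bulk. Hepatocyte markers were present in both, with 9 of 10 at a mean of at least 1 TPM. They summed to 3849 to 11961 TPM in sorted libraries, against 42375 to 42909 in bulk. The marker below that mean was APOB, listed at no more than 0.318 TPM in sorted libraries and 0.122 in bulk. Since it is not stated how reads were assigned to genes, this does not show that APOB is absent. Among the markers of fibroblasts, endothelium and leukocytes, LYZ was the highest in either group, at up to 441 TPM in sorted libraries and 1962 in bulk, and the leukocyte marker PTPRC reached no more than 0.0440 TPM in sorted libraries and was at 0 in bulk. MECR, which overlaps SRSF4, averaged 53.9 ± 8.52 rescaled TPM over the sorted libraries, against 16.3 ± 1.97 over bulk. MFSD11, which overlaps SRSF2, averaged 49.1 ± 9.87 over the sorted libraries, against 25.5 ± 2.02 over bulk (SD, n = 12 sorted and n = 3 bulk). The part of any of these in the members' differences was not tested.

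The rest of the pathway is given by lists of genes that share its roles, to be read beside the 55.1% of all genes called higher and 16.5% called lower in sorted libraries on the rescaled scale. On TPM as deposited 23.1% of all genes were called higher and 57.8% lower. Of 7 further SR protein kinases, 6 were tested against bulk and 5 were called higher in sorted libraries on the rescaled scale (SRPK1, SRPK2, CLK3, PRPF4B and DYRK1A), led by PRPF4B at 1.98 and CLK3 at 1.87 on the log2 scale. On TPM as deposited 4 of 5 tested were called lower, CLK3 among them at -0.53, so this direction too turns with the scale. CLK2 was listed at no more than 0.468 TPM in any sorted library and at 0 in bulk. How reads were assigned to genes is not stated, so this does not show that CLK2 is absent. Of the other SR proteins, SRSF12 (1.66) and SRSF10 (0.63) were called higher in sorted libraries and SRSF8 (-1.21) and SRSF9 (-0.98) lower on the rescaled scale, and all 3 tested on TPM as deposited were called lower. SRSF12 was listed at no more than 1.30 TPM in any library.

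SR-related proteins and partners, which include the splice-site factors U2AF1 and U2AF2 and the nuclear importer of SR proteins TNPO3, had 13 of 15 called higher in sorted libraries than in bulk on the rescaled scale, all but RNPS1 and TNPO3. The largest differences were those of PNN (4.53), a speckle protein of the exon junction, and ACIN1 (3.21). On TPM as deposited 10 of 15 were called lower and 2 higher, and those 2 were PNN (1.93) and ACIN1 (0.62). Of all genes, 57.8% were called lower on that scale and 23.1% higher. Of the hnRNP proteins, which often oppose SR proteins at exons, 7 of 14 tested, a share near the 55.1% of all genes, were called higher in sorted libraries (HNRNPA2B1, HNRNPC, HNRNPD, HNRNPDL, HNRNPH1, HNRNPH3 and HNRNPU) and 6 lower on the rescaled scale (HNRNPA0, HNRNPA1, HNRNPF, HNRNPK, HNRNPM and PTBP1), and all 14 lower on TPM as deposited. HNRNPA0 (-2.63) and HNRNPA1 (-1.90) had the largest differences on the rescaled scale. HNRNPA1 and U2AF1 have near-identical copies elsewhere in the genome, so their values are uncertain. HNRNPL and HNRNPR, which most cells express, were listed at no more than 0.0984 TPM in any library. As for CLK2, this does not show that they are absent. Of 10 factors of nonsense-mediated decay, 8 were called higher in sorted libraries on the rescaled scale, led by SMG6 (1.79) and UPF3B (1.77), and all 10 lower on TPM as deposited.

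Among the fractions no gene of these lists was called in the main fits. Between the replicate numbers, on TPM as deposited and with the same sign on the other 3 scales, SRSF10, the kinase PRPF4B, the splicing activators TRA2A and TRA2B, SRRM1, PNN and LUC7L2 were called higher in replicate 3 than in replicate 2 and SNRNP70, a protein of the U1 particle, lower. Among the 15 SR-related genes that is 5 higher and 1 lower on TPM, but 4 higher and 4 lower with median-ratio scaling and 4 higher and 5 lower with voom. Over all genes, 5656 were called in either direction with median-ratio scaling and 6577 with voom. SRRM2, U2AF2 and LUC7L were called lower on both of those scales, and TRA2A was not called there (limma adjusted p = 0.0851 and 0.0572). HNRNPDL and HNRNPH1 of 14 hnRNP genes and UPF3A and UPF3B of 10 decay factors were also called higher in replicate 3, where 18% of all genes were. HNRNPH1 (0.71), PRPF4B (0.70) and LUC7L2 (0.64) had the largest differences on the log2 scale, beside 0.67 for CLK4, and SNRNP70 stood at -0.54.

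Across the 12 sorted libraries the levels of most members varied together. Over all 45 pairs the median Pearson's r was 0.72 on the rescaled scale, and 40 pairs were above 0. The median over all pairs of the 10880 genes compared was 0.10. SRSF5 was set apart after these values had been seen. The 36 pairs without it lay between 0.39 and 0.96, with a median of 0.79. The members other than SRSF5 were all called higher in replicate 3 on this scale, and that shared difference enters their r. The 9 pairs with SRSF5 lay between -0.34 and 0.13, and 5 of them were below 0. SRSF3 with SRSF6 had the highest (r = 0.96), followed by SRSF2 with SRSF6 (r = 0.96) and SRSF2 with SRSF7 (r = 0.95), and SRSF4 with SRSF5 the lowest (r = -0.34). The points share libraries, fractions and replicate numbers, and the r is a description across 12 libraries. Over 10870 genes compared, the profile most like the mean of the members was that of GPBP1 (r = 0.98), then CNOT9 (r = 0.98) and MOB1A (r = 0.97). CCT2, a subunit of a chaperonin, was most like SRSF7 (r = 0.99), MAT2A, which makes the methyl donor S-adenosylmethionine, was most like SRSF3 (r = 0.98), and CEP192 was most like SRSF2 (r = 0.98). WDR11 was most like CLK4 (r = 0.97), BTBD10 most like CLK1 (r = 0.95), and TRIM24 most like SRSF1 (r = 0.96). SRSF5 had no gene above RNF126 (r = 0.83), the lowest such value of the 10.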

How the data were processed

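The RNA tables cover 15 libraries of HepG2 cells, while the 18 samples of replication timing were not used here. The authors deposited 1 table of log2 values per library, which are log2(TPM + 1), since the back-transformed values sum to 1000000. Per the submitters' processing notes, the tools were HISAT2, BWA, SAMtools, cutadapt and Trimmomatic and the build hg38, with no role stated. No source used here names the program or annotation behind the gene values.

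Symbols were matched for 61481 of 78932 identifiers, and 19337 nuclear protein-coding genes (RefSeq biotype, by symbol or unique synonym) were rescaled to 1000000 per library, without the mitochondrial mRNAs. Comparisons used limma 3.58.1 in R 4.3.3 with an intensity trend on log2(TPM + 1), a filter of mean TPM 1 or more, 1 mean per fraction, no replicate term except in replicate 3 against replicate 2, and Benjamini-Hochberg adjustment over all genes tested at 0.05. A fold change on this scale is smaller than the true one for low genes. Sorted fractions against bulk used rescaled TPM. Whole reads were recovered from the steps of the values for 50309 of the 50310 genes that were above 0 in 3 libraries or more (tolerance 0.001) and used with limma's voom as an alternative, which called 6577 genes in replicate 3 against replicate 2 where the main fit called 4252, and 0 in G2 against G1 where the main fit called 1. A recovered unit may be a read or a pair. The recovery of reads and the fit of G2 against G1 were tested on simulated data, which held no difference between replicate numbers. The other comparisons were not tested in this way. No 2 replicates agreed within sampling noise (chi-square per degree of freedom at least 2.98).

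Members and gene lists were chosen with earlier results of these data known. All members are named, as are the list genes called in the comparison described and, per list, those with the largest differences. Likeness is Pearson's r of log2 rescaled TPM over the 12 sorted libraries. Alternatives were the pseudocount, the filter, the scaling, the replicate block, voom and leaving out each library. Rescaling with the mitochondrial mRNAs was added after the data had been seen. The groups share 2 replicate numbers, with no shared culture or day in the labels.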

Additional observations from a re-analysis of the deposited data

How the results depend on the processing

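Among the fractions no member was called under the pseudocount, filter and scaling alternatives or with any library left out. The count of genes called for any difference was 0 with a filter of mean TPM 5, with voom and on both rescaled scales, and 0 to 2 with a library left out. For G2 against G1 it was 0 with no filter, with the filter of 5, with voom and on both rescaled scales. For S against G1 it was 4 with a pseudocount of 0.1, 3 with no filter and 2 with median-ratio scaling, and for G2 against S it was 2 with the pseudocount of 0.1, 28 with no filter, and 0 with the filter of 5, with voom and on both rescaled scales. The slope called 1 gene with the pseudocount of 0.1. With a library left out these counts lay between 0 and 2. SRSF1 in S against G1 turned to 0.19 with median-ratio scaling, 0.19 with voom, 0.15 rescaled and 0.11 rescaled with mitochondrial mRNAs, and ran from -0.18 to 0.092 with a library left out. Over all members and alternatives other than leaving out a library, the sign turned in 24 of 100 values for G2 against G1, 33 of 100 for S against G1, 28 of 100 for G2 against S and 7 of 100 for the slope.

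The labels do not show that the 2 replicate numbers pair the libraries, though deviations of same-numbered libraries correlated between fractions at 0.308 to 0.379. Block and voom together called 663 genes for any difference, with 1 member (CLK4, limma adjusted p = 0.0331), 102 for G2 against G1, 373 for S against G1, 0 for G2 against S and 731 for the slope. Block and rescaling together called 177, 40, 187, 0 and 252 in those comparisons and no member. SRSF1 in S against G1 was 0.21 with block and voom and 0.15 with block and rescaling, and SRSF3 against bulk was -0.72 with block and voom.

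Replicate 3 against replicate 2 called 1907 genes and 1 member with no filter, 6577 genes with voom, 9 members rescaled, and 7996 genes and 10 members rescaled with mitochondrial mRNAs, where SRSF5 turned to 0.20. With a library left out it called 2458 to 4260 genes and 1 to 5 members, and SRSF5 ran from -0.13 to 0.029. For sorted fractions against bulk, TPM as deposited gave -1.59 for SRSF1, -1.82 for SRSF2, -2.54 for SRSF3, -1.03 for SRSF4, -0.75 for SRSF5, -1.60 for SRSF6, -1.50 for SRSF7, -0.58 for SRSF11, -0.21 for CLK1 and -0.18 for CLK4. Median-ratio scaling turned SRSF2 to -0.18 and SRSF3 to -0.92, voom turned SRSF3 to -0.72, rescaling with mitochondrial mRNAs turned it to -0.0039, and with a library left out it ran from -0.051 to 0.097. The cause of these turns was not tested. A fraction left with 1 library was assumed to vary like the others. With 2 libraries per fraction, the SE of a member in S against G1 was 0.21 (SRSF5) to 0.37 (CLK4), which limits the size that could be resolved.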
